A study of Saccharomyces cerevisiae with 48 samples.

Results

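Genes of the yeast meiotic programme, 10 members chosen by symbol from the 6256 genes on the array, were followed in haploid budding yeast. They were the regulators IME1, IME2 and NDT80, the recombination genes SPO11, DMC1 and HOP1, the chromosome segregation genes REC8 and SPO13, and the spore formation genes SPR3 and SPS1. All 10 were found on the array and all 10 passed the filters on dim probes. Agilent arrays of 1 colour measured Cy3-labelled copies of total RNA, 1 culture to an array. The 43 treated segregants were haploid progeny of a cross that the labels name YJM789 X S96, each measured once after 30 min in 5 µM alpha factor. The parental lines HS959 and S96 were each measured once with alpha factor, and HS959, S96 and the segregant SEG8 were each measured once without it (1 untreated segregant, 2 untreated parents). All strains are MATa, the mating type that senses alpha factor, and all cultures were grown in rich medium to mid-log phase. HS959 and S96 are single lines, and each strain has at most 1 array per condition, so p-values measure the spread between these arrays only, part of which may be technical.

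Sporulation in budding yeast is a programme of diploid MATa/MATalpha cells that are starved of nitrogen and of a fermentable carbon source. Such cells lack the repressor Rme1 and switch on IME1, the master activator, which acts with Ume6 on early genes for meiotic recombination and chromosome pairing. The kinase Ime2 then helps the activator Ndt80 to turn on middle genes for the nuclear divisions and for spore formation. In haploids that grow in rich medium, Ime1 is held down and Ume6 represses the early genes through a shared promoter element, while Sum1 represses many middle genes.

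Levels are log2 intensities relative to the 75th percentile of their array, and differences between levels are on the same log2 scale. Each gene had 1 probe in 2 spots, so a level can be compared between arrays but not between genes. The median intensity per array was 9804 to 23353, and the share of spots well above background was 94.0% to 99.9%. SEG14, a segregant, had the lowest share, and 8 segregants on the slide numbered 5 had 97.0% to 98.6%. The arrays lay on 6 slides. Slide 1 carried the 4 parent arrays and slide 2 the pair of SEG8 arrays, so each treated and untreated pair shared a slide. The mating reporter gene FUS1 had levels of 1.31 or more on all 45 treated arrays, against -1.38 or less on the 3 untreated arrays. All 7 MATa marker genes were well above background on 48 of 48 arrays. So were all 5 MATalpha marker genes and 5825 of all 6256 genes, so this flag did not separate the mating types. With alpha factor 7 of 7 MATa markers, 4 of 5 MATalpha markers, 5 of 9 haploid-specific genes and 12 of 12 pheromone response genes rose and 0 fell, where 15% of all genes rose.

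The first comparison asked which of these genes changed with alpha factor in HS959, S96 and SEG8. NDT80, SPO11 and DMC1 rose, by 2.10-fold to 4.56-fold, and REC8, SPO13 and SPS1 fell, by 1.47-fold to 2.25-fold. IME1, IME2, HOP1 and SPR3 did not pass the test (limma with strain as a term, Benjamini-Hochberg adjusted p under 0.05 over all genes). The 6 calls among 10 members stand beside 35.6% of all 6252 tested genes, and the 3 higher and 3 lower calls stand beside 15% and 20.6% of all genes. The median change was -0.07 over the members and -0.04 over all genes. In bulk RNA, a change in the number of expressing cells and a change in RNA per cell cannot be told apart.

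**Figure D1:**
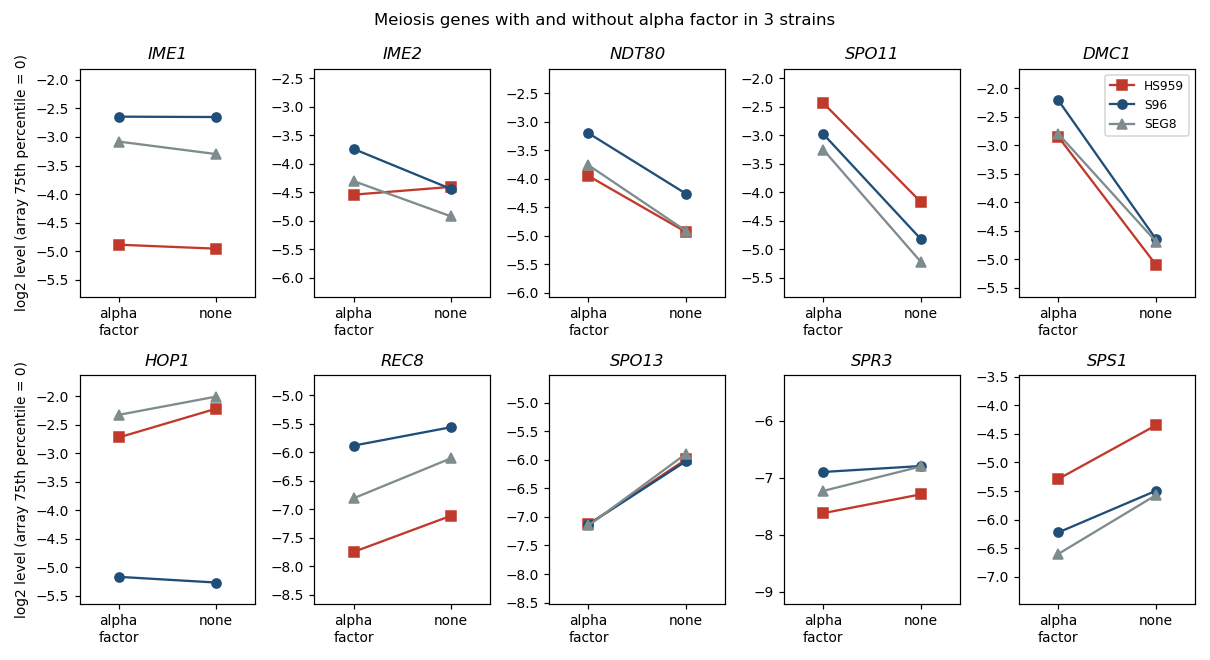
Level of each gene (vertical axis, log2 intensity relative to the 75th percentile of the array, every panel spanning the same range) with alpha factor and without, with 1 line for each strain. The lines of NDT80, SPO11 and DMC1 fall to the right in all 3 strains, those of SPO13, SPS1 and REC8 climb, and the IME2 and HOP1 lines do not all run the same way.

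Among the regulators, the level of IME1 hardly moved with alpha factor. It was -4.89, -2.64 and -3.08 in treated HS959, S96 and SEG8, against -4.96, -2.65 and -3.30 in the untreated strains. The change was 0.10 ± 0.11 (SD over strains, n = 3, limma adjusted p = 0.410), which is small beside the distance of HS959 from the other strains. IME2 had levels of -4.54, -3.74 and -4.30 in treated HS959, S96 and SEG8, against -4.40, -4.44 and -4.92 untreated. S96 and SEG8 were higher with alpha factor while HS959 was slightly lower, and the groups overlapped. The change of 0.40 ± 0.46 (SD, n = 3) did not pass the test (limma adjusted p = 0.176), but it did without HS959 (0.66, adjusted p = 0.0456). NDT80, whose product activates the middle genes, had levels of -3.95, -3.20 and -3.76 with alpha factor, against -4.94, -4.27 and -4.92 without, in the same strain order. Every treated level was above every untreated one, and the rise was close to the same in each strain. It measured 1.07 ± 0.09 (SD, n = 3, limma adjusted p = 0.00263). A fit with no strain term lost this call (adjusted p = 0.0645).

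SPO11 and DMC1 act in recombination: Spo11 makes the DNA double-strand breaks of meiosis, and Dmc1 is the meiosis-specific strand exchange protein. SPO11 had levels of -2.44, -2.98 and -3.26 in treated HS959, S96 and SEG8, against -4.17, -4.82 and -5.22 untreated. The treated and untreated levels did not overlap, and the rise was 1.85 ± 0.12 (SD, n = 3), or 3.60-fold (limma adjusted p = 0.00102). DMC1 had levels of -2.85, -2.21 and -2.80 with alpha factor, against -5.10, -4.65 and -4.69 without, again with no overlap. Its rise of 2.19 ± 0.28 (SD, n = 3, limma adjusted p = 0.00181) was 2.24 in HS959, 2.43 in S96 and 1.89 in SEG8. HOP1 encodes a protein of the meiotic chromosome axis. Its levels were -2.72, -5.17 and -2.33 with alpha factor, against -2.22, -5.27 and -2.01 without. It was lower with alpha factor in HS959 and SEG8 and slightly higher in S96, and the change of -0.24 ± 0.31 (SD, n = 3) did not pass the test (limma adjusted p = 0.238). S96 lay far under the other strains in both conditions.

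REC8 encodes the meiotic cohesin subunit, and SPO13 is required for the pattern of chromosome segregation in the first meiotic division. REC8 had levels of -7.75, -5.88 and -6.81 in treated HS959, S96 and SEG8, against -7.11, -5.56 and -6.10 untreated. Each strain was lower with alpha factor, but the strains lay so far apart that the groups overlapped. The fall of 0.55 ± 0.20 (SD, n = 3) passed the test (limma adjusted p = 0.0207). Its adjusted p was 0.0228 without S96, but 0.104 without HS959, 0.105 without SEG8, 0.0776 with quantile scaling and 0.0521 with the other background correction. SPO13 was nearly level across strains, at -7.13, -7.13 and -7.15 with alpha factor, against -5.99, -6.02 and -5.89 without. It fell by 1.17 ± 0.08 (SD, n = 3, limma adjusted p = 0.00234), the smallest spread over strains of the 10 genes, with no overlap.

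The spore formation genes were lower or did not pass. SPR3 encodes a septin of the sporulating cell, and SPS1 a protein kinase needed for spore wall assembly. SPS1 had levels of -5.29, -6.23 and -6.60 in treated HS959, S96 and SEG8, against -4.35, -5.50 and -5.57 untreated. It fell in each strain, by 0.90 ± 0.15 on average (SD, n = 3, limma adjusted p = 0.00526), although treated HS959 lay above the untreated levels of both other strains. Without the strain term the adjusted p was 0.296. SPR3 had levels of -7.62, -6.90 and -7.23 with alpha factor, against -7.29, -6.80 and -6.80 without. All 3 strains were lower with alpha factor, and the difference of -0.29 ± 0.17 (SD, n = 3) did not pass the test (limma adjusted p = 0.0805). In all, 4 of 10 members (NDT80, SPO11, DMC1 and SPO13) had treated and untreated levels that did not overlap, beside 32.4% of all genes.

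The second comparison set the parental lines against each other in the same fit. Of the members, 3 were higher in HS959 (SPO11, HOP1 and SPS1) and 4 lower (IME1, NDT80, REC8 and SPR3), beside 6.72% and 13.9% of all 6252 genes. The largest differences were in HOP1, IME1 and REC8. Quantile scaling moved the median difference of all genes to 0.04, against -0.09 at the scaling used here, and the split of calls over all genes to 705 higher and 607 lower, against 420 higher and 870 lower. Under quantile scaling NDT80 (-0.39, adjusted p = 0.0712) and SPR3 (-0.09, adjusted p = 0.771) lost their calls. With 1 probe a gene, a difference in RNA and a difference in the strain's sequence under the probe cannot be told apart.

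**Figure D2:**
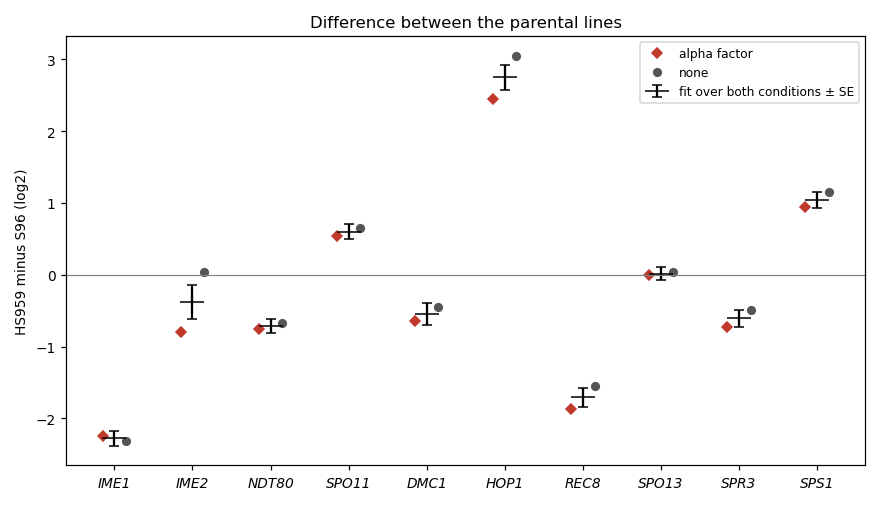
Difference in level between HS959 and S96 (vertical axis, log2) for each gene, with alpha factor (diamonds) and without (circles), and the estimate of the fit with its standard error. HOP1 lies at 2.75 and IME1 at -2.28, and the points of IME2 lie farthest apart between the conditions.

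HOP1 was 2.75 ± 0.17 higher in HS959 (SE of the fit, 2 arrays each), or 6.71-fold (limma adjusted p = 0.00217). The difference was 2.44 with alpha factor and 3.05 without it. SEG8, at -2.33 and -2.01, lay near HS959 in both conditions. IME1 was lower in HS959 by 4.84-fold, a difference of -2.28 ± 0.10 (SE, limma adjusted p = 0.000985), with -2.24 in treated and -2.31 in untreated cells. SEG8, at -3.08 and -3.30, lay between the parents and nearer to S96. REC8 was lower in HS959 by 3.27-fold, a difference of -1.71 ± 0.13 (SE, limma adjusted p = 0.00364), and SEG8 lay between them. The remaining calls were smaller. SPS1 was 2.06-fold higher in HS959 (1.04 ± 0.11, SE, limma adjusted p = 0.00878), and SEG8 lay below both parents. SPO11 was higher in HS959 by 0.60 (limma adjusted p = 0.0244), NDT80 lower by 1.64-fold (-0.71, adjusted p = 0.0135) and SPR3 lower by 1.52-fold (-0.61, adjusted p = 0.0316). Without SEG8 in the fit, SPO11 (adjusted p = 0.0560) and SPR3 (adjusted p = 0.0648) lost their calls. DMC1 (-0.55, adjusted p = 0.0733), IME2 (-0.38, adjusted p = 0.287) and SPO13 (0.02, adjusted p = 0.919) did not pass. IME2 differed by -0.80 with alpha factor and by 0.04 without it.

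The third comparison followed the 43 treated segregants. Their spread exceeded the noise of the paired arrays for 9 of 10 members, all but IME2 (one-sided F test, adjusted p under 0.05), beside 30.9% of all 6230 genes tested. That noise comes from pairs on 1 slide each, so differences between slides are not in it. With slide means removed the same 9 members passed, beside 18% of all genes. Slide itself had an effect in limma on 48.1% of all genes and on 6 members: IME2 (adjusted p = 1.36e-07), SPR3 (4.87e-05), REC8 (0.000363), SPO11 (0.00637), NDT80 (0.0127) and SPO13 (0.0391). The slide 5 segregants had the lowest median for each of these 6.

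**Figure D3:**
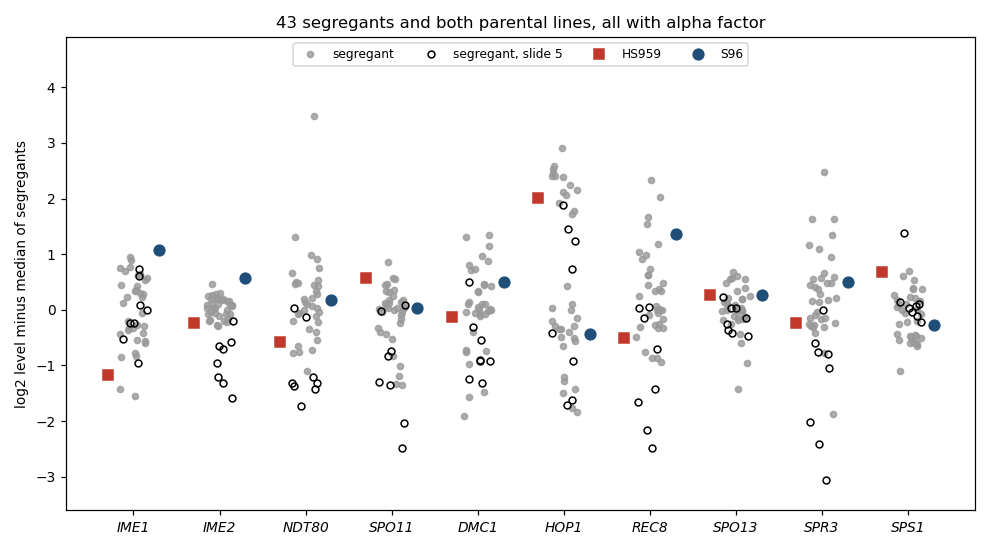
Level of each gene in 43 treated segregants (circles, open for slide 5) with treated HS959 (squares, left) and treated S96 (large circles, right), as log2 level minus the median of the segregants of that gene. HOP1 shows 2 clusters, IME2 shows a low cluster made of slide 5 segregants, and the single high NDT80 point is SEG14.

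HOP1 had the largest SD of the 10 genes, with a lowest level of -6.57 (SEG30), a median of -4.74 and a highest of -1.83 (SEG47). The SD was 1.50, against a noise SD of 0.17 (adjusted p = 0.00735), and it was 1.53 within slides. The levels fell into 2 clusters: 26 segregants at -4.01 or below and 17 at -3.50 or above, and a mixture of 2 normal distributions gained 14.2 in BIC over 1. Treated HS959 (-2.72) lay within the range of the upper cluster and treated S96 (-5.17) within that of the lower. Slide had no called effect on HOP1 (adjusted p = 0.681). Of the 43 segregants, 11 lay above both parents, 19 between them and 13 below both.

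IME1 ranged between -5.27 (SEG9) and -2.76 (SEG31) with a median of -3.72. Its SD was 0.62 (adjusted p = 0.0137), and 41 of 43 segregants lay between HS959 and S96, with 0 above both and 2 below both. The largest gap between neighbouring levels was 0.45, below the 41. IME2 ranged between -5.88 (SEG36) and -3.84 (SEG16) with a median of -4.30, and its SD of 0.44 did not pass (noise SD 0.23, adjusted p = 0.128). Its levels also formed 2 clusters, but 7 segregants at -4.89 or below were all on slide 5. The median was -5.12 on slide 5, and -4.31 to -4.17 on the other slides. NDT80 ranged between -5.11 (SEG41) and 0.10 (SEG14) with a median of -3.37. SEG14 stood 2.17 above the next segregant, SEG50 at -2.07. The SD was 0.90 with SEG14 (adjusted p = 0.00681) and 0.72 without it (adjusted p = 0.0103).

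The recombination genes that rose with alpha factor also varied. DMC1 ranged between -4.62 (SEG30) and -1.37 (SEG7) with a median of -2.72 and an SD of 0.79 (adjusted p = 0.0186). All 43 segregants lay above the highest of the 3 untreated DMC1 levels, of which 1 is SEG8's own. The margin was narrow: SEG30, at -4.62, lay above untreated S96, at -4.65, by less than the noise SD of 0.16. SPO11 ranged between -5.50 (SEG35) and -2.14 (SEG11) with a median of -3.01 and an SD of 0.72 (adjusted p = 0.0111), and 36 of 43 segregants lay above the highest untreated level. For NDT80 36 of 43 did so. Most segregants that did not, for either gene, were on slide 5, where the medians were lowest (-4.07 for SPO11, -4.68 for NDT80). The untreated arrays lay on slides 1 and 2 only. How many of all genes separate in this way is not given here, nor for SPO13 and SPS1 below. The DMC1 call was lost with quantile scaling (adjusted p = 0.0591).

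REC8 and SPR3 had a wide range with their low ends on slide 5. REC8 ranged between -9.72 (SEG36) and -4.92 (SEG9) with a median of -7.25 and an SD of 0.98 (adjusted p = 0.00969), and it was well above background on 41 of 43 arrays. SPR3 ranged between -10.45 (SEG36) and -4.92 (SEG9) with a median of -7.39 and an SD of 1.05 (adjusted p = 0.00735), above background on 40 of 43 arrays. The same segregants were thus the lowest and the highest for both genes. In SEG36 both levels lay at or under -9.72, the lowest level well above background on its array, so the shared low end is one of dim spots. Within slides the SD was 0.75 for each. SPO13 had a narrower range, between -8.82 (SEG14) and -6.72 (SEG11) with a median of -7.40 and an SD of 0.41 (adjusted p = 0.0249), and all 43 segregants lay below the lowest untreated level. SPS1 ranged between -7.06 (SEG14) and -4.57 (SEG38) with a median of -5.96 and an SD of 0.45 (adjusted p = 0.0283), and 39 of 43 segregants lay below the lowest untreated level. The calls of SPO13 and SPS1 were lost with quantile scaling (adjusted p = 0.0988 and 0.0564), and with the noise taken without HS959 (0.0809 and 0.0833) or without SEG8 (0.0744 and 0.0761). That of SPO13 was also lost with the other background correction (0.0531).

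As a group, the segregants were set against both treated parents, and no member passed (limma), beside 2 of 6231 genes (0.0321%). At an unadjusted p under 0.05 the number over all genes was 378 (6.07%). With 2 parental arrays this comparison has little precision, and the parents lay on 1 slide.

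Pairs of members were correlated over the 43 segregants, 45 pairs in all. The 17 pairs with HOP1 or IME2, whose levels were clustered, are left without a pooled coefficient. Of the other 28 pairs, 15 passed (permutation test of Pearson's r with 100000 resamples, two-sided, adjusted over 45 pairs), 12 positive and 3 negative, and 11 of these also passed by Spearman's rho. With slide means removed, 7 of the 15 still passed, and with SEG14 also left out, a setting chosen after seeing the data, 3 did. Those were the pairs of SPO11 with DMC1, REC8 with SPR3 and DMC1 with SPS1. Values with slide means removed were permuted over all arrays and not within slides, so those p-values may be too small. The share of pairs that pass over all genes was not computed. For members other than HOP1 and IME2, 1.02% (IME1) to 21.3% (SPR3) of genes on other chromosomes had an absolute r over 0.5. With slide means removed the share was 0.982% (IME1) to 6.49% (SPS1).

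**Figure D4:**
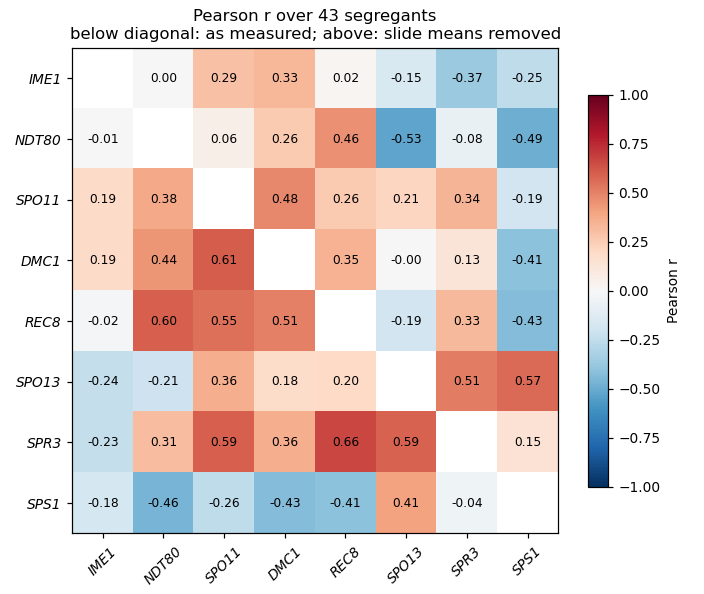
Pearson's r over 43 segregants between the 8 genes without clusters, as measured (below the diagonal) and with slide means removed (above it). SPO11 and DMC1 keep an r of 0.48 after removal, against 0.61 as measured, and no coefficient of IME1 shown here passed.

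SPO11 and DMC1, which rose together with alpha factor, also varied together over segregants. Pearson's r was 0.61 and Spearman's rho 0.60 (permutation adjusted p = 0.000225 and 0.00113). Without the 2 segregants farthest from the SPO11 median r was 0.57, and with slide means removed it was 0.48 (permutation adjusted p = 0.0110). REC8 and SPR3 had an r of 0.66 and a rho of 0.63 (permutation adjusted p = 0.000225 and 0.000900), with 0.52 without the 2 farthest. Here SEG14 mattered: with slide means removed r was 0.33 (adjusted p = 0.0859) with SEG14 and 0.65 without it. DMC1 and SPS1 were negatively related, with r = -0.43 and rho = -0.40 (permutation adjusted p = 0.0121 and 0.0264). The relation was -0.41 with slide means removed, but -0.33 without the 2 farthest segregants, where it no longer passed (adjusted p = 0.0850). SPO13 and SPR3 had an r of 0.59 and a rho of 0.56 (permutation adjusted p = 0.000450 and 0.00195), 0.58 without the 2 farthest, 0.51 with slide means removed and 0.03 with quantile scaling. NDT80 and REC8 had an r of 0.60 and a rho of 0.54 (permutation adjusted p = 0.000321 and 0.00248), and 0.58 without the 2 farthest. With slide means removed and without SEG14 that r was 0.22.

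Likeness to all other genes was measured by Pearson's r over the same 43 arrays, which share slides and scaling, and is given as a description. The 3 genes most like HOP1 all lay on its own chromosome, IX: AIM19 (r = 0.65, 13 genes away), YIL089W (0.61, 15 genes away) and AIR1 (0.60, 7 genes away). Within the 26 segregants of the lower HOP1 cluster these coefficients were 0.16, 0.55 and 0.05, and within the 17 of the upper one -0.23, -0.18 and -0.49. Of the 20 genes most like HOP1, 9 lay on chromosome IX, which holds 3.37% of the genes compared, and with slide means removed 10 did. Among the 39 genes within 20 genes of HOP1, 5 had an absolute r over 0.5, against 2 of 5532 genes on other chromosomes. All 5 lay on the same side of HOP1 as AIM19. On the other side the largest absolute r within 20 genes was 0.45 (YIL060W). Some neighbours ran the opposite way, down to -0.62. AIM19 was higher in HS959 by 1.40 (limma adjusted p = 0.0108), as HOP1 was, while YIL089W (0.56, adjusted p = 0.0532) and AIR1 (0.50, adjusted p = 0.286) did not pass.

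**Figure D5:**
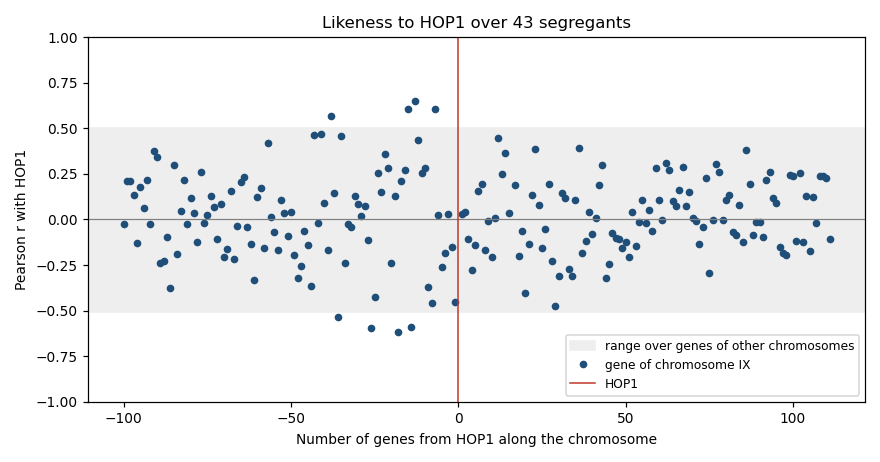
Pearson's r with HOP1 over 43 segregants (vertical axis) for each gene of chromosome IX by its number of genes from HOP1 (horizontal axis), with the range over genes of other chromosomes shaded. Points outside the shaded range, from 0.65 to -0.62, lie within 40 genes of HOP1, all to its left, and genes over 40 away stay inside the range.

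For the other members, 0 to 5 of the 20 most alike genes lay on the member's own chromosome. Of the 40 genes within 20 genes of SPO11, 14 had an absolute r over 0.5 (35%, against 16.9% on other chromosomes), but with slide means removed 2 did (5%, against 5.83%). For NDT80 8 of 40 did (20%, against 9.49%), and 6 of 40 with slide means removed (15%, against 5.83%). These NDT80 shares include SEG14, which stood far above the other segregants, and were not computed without it. DMC1 was most like HES1, a member of the oxysterol-binding protein family (r = 0.81), VMA22 (0.77) and YPR027C (0.77), whose alpha factor differences were 3.59, 1.13 and 5.48. SPO11 was most like HIM1, VPS52 and HDA2 (0.82, 0.82 and 0.81), whose alpha factor differences were 0.70, 0.23 and 0.47. NDT80 was most like IRC3, JLP2 and MRPS35 (0.81, 0.79 and 0.79, but 0.68, 0.64 and 0.66 without SEG14), whose alpha factor differences were -0.14, -0.44 and -0.21. IME1 was most like MGL2, COQ5 and GLO3 (0.66, 0.64 and 0.63). REC8 was most like AUS1, BIO3 and PEP3 (0.83, 0.81 and 0.79, but 0.77, 0.67 and 0.63 with slide means removed). SPR3 was most like PEX9, GAL2 and NRG1 (0.88, 0.85 and 0.83, but 0.78, 0.72 and 0.65 with slide means removed). GAL2 encodes galactose permease and NRG1 a repressor active on glucose. SPO13 was most like YGR291C, YDL016C and MAN2 (0.71, 0.68 and 0.68). SPS1 was most like PPT1, TRS85 and GAS4 (0.69, 0.66 and 0.65), of which TRS85 lies on chromosome IV, as SPS1 does. IME2 did not pass the variance test, so no like genes are named for it.

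The genes on each side of a member were read for their own change with alpha factor. The reading frame YJL107C beside IME2 rose by 3.78 ± 0.71 (SD, n = 3, limma adjusted p = 0.00259), far more than the IME2 difference of 0.40. YHR125W beside NDT80 rose by 1.03 ± 0.29, close to the rise of NDT80, and its r with NDT80 over segregants was 0.62. That r includes SEG14, the single high NDT80 level, and is not given without it. AIM17 beside SPO11 rose by 0.89 ± 0.41, and its r with SPO11 was -0.32. ISC10 beside DMC1 changed by 0.89 ± 0.86 and did not pass (limma adjusted p = 0.105). The neighbours NPR3 of SPO11 (-0.03) and PDA1 of DMC1 (0.13) did not pass either, and NPR3 had an r of 0.57 with SPO11. SPO22, a meiotic gene beside HOP1, rose by 0.51 ± 0.17, and its r with HOP1 over segregants was -0.45. MIP6 beside SPO13 fell by 0.51 ± 0.19, and PEF1 and ERG25 beside SPR3 fell by 0.32 ± 0.05 and 0.86 ± 0.30. FIP1 and RPL43B beside IME1, SET4 beside IME2, EPT1 beside NDT80, PCI8 beside HOP1, ICL2 and HAA1 beside REC8, ARD1 beside SPO13, and SPS2 and AGE1 beside SPS1 did not pass. Between the parents, ICL2 beside REC8 was lower in HS959 (-2.84, limma adjusted p = 0.00241), as REC8 was, but its r with REC8 over segregants was 0.16. EPT1 beside NDT80 (-0.78, adjusted p = 0.0160) was lower in HS959 too, as NDT80 was. SPS2 beside SPS1 was higher in HS959 (0.75, adjusted p = 0.0485), as SPS1 was. MIP6 beside SPO13 (-1.01, adjusted p = 0.0105) and PDA1 beside DMC1 (-0.46, adjusted p = 0.0337) were lower in HS959, and those members were not called.

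The other genes of the programme were read from 4 lists with 102 genes on the array. Of 18 regulators of meiotic entry, 4 rose, 6 fell and 8 did not pass, with a median change of 0.03 (over all genes, 15% rose, 20.6% fell and the median was -0.04). IME4, an mRNA methyltransferase gene, was at -0.12 or above on all 45 treated arrays, against -8.03 or below on the 3 untreated ones. RIM11, a kinase gene, and SSN3, encoding a kinase of the Mediator complex, rose by 0.51 ± 0.17 and 0.49 ± 0.09 (SD, n = 3). AMA1, the meiotic activator of the anaphase-promoting complex, fell by 1.25 ± 0.08, SLZ1 by 0.99 ± 0.17 and UME6 by 0.88 ± 0.33 (limma adjusted p = 0.0145). RME1, the haploid repressor of IME1, changed by 0.15 ± 0.30 and did not pass (adjusted p = 0.443). KAR4, a mating regulator that also acts in meiosis and is not among these 18 genes, rose by 2.74 ± 0.49.

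Of 31 recombination and synapsis genes, 4 rose, 7 fell and 20 did not pass, with a median of -0.13, and these shares are near those of all genes (15% higher and 20.6% lower). SAE3 rose by 3.81 ± 0.64 (SD, n = 3), whereas MEI5, whose product pairs with Sae3 to assist Dmc1, fell by 1.12 ± 0.19. Both were well above background on the 6 arrays of the fit, but at low levels. Untreated SAE3 lay at -10.6 to -10.1 and treated MEI5 at -9.91 to -9.83, and MEI5 was well above background on 35 of 48 arrays. ZIP2 rose by 2.52 ± 0.51, whereas SPO16, whose product joins Zip2 in the crossover machinery, fell by 3.17 ± 0.30. MSH5, a crossover gene, rose by 0.92 ± 0.30. RDH54, a motor protein gene of both meiotic and mitotic repair, fell by 1.13 ± 0.15.

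Of 11 chromosome segregation genes, 2 rose, 8 fell and 1 did not pass, with a median of -0.55, beside the same 15% and 20.6% of all genes. Several of them also serve mitosis. MCD1, the mitotic cohesin subunit whose place Rec8 takes in meiosis, fell by 3.71 ± 0.19 (SD, n = 3). CLB1, a mitotic cyclin gene, fell by 1.43 ± 0.33, and SGO1, encoding the shugoshin that protects cohesin, fell by 1.26 ± 0.38. SPO12, which acts in mitotic exit, rose by 1.69 ± 0.28, and LRS4, a subunit gene of the monopolin complex, rose by 0.39 ± 0.05. Of 42 spore formation genes, 8 rose, 13 fell and 21 did not pass, with a median of -0.19, again beside 15% higher and 20.6% lower over all genes. The prospore membrane gene ADY3 rose by 2.52 ± 0.68 and the chitin deacetylase genes CDA1 and CDA2, of the spore wall, by 2.02 ± 0.55 and 1.92 ± 1.24. MUM3 fell by 0.90 ± 0.12, GAS2 by 0.80 ± 0.41 and DIT1, of dityrosine synthesis, by 0.74 ± 0.24. Of the 6 markers of sporulating cells (DIT1, DIT2, SPS100, SMK1, SPS2 and SPS4), 0 rose and 3 fell, and 4 were well above background on all 48 arrays. The same flag held on all 48 arrays for 5825 of all 6256 genes.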

How the data were processed

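RNA of 48 cultures was measured on 1-colour arrays. The deposited scanner files hold the Cy3 intensity of each spot, background-subtracted and spatially detrended by Agilent Feature Extraction 10.5.1.1 per the file headers; the submitters' processing notes name version 9.1. The authors' series matrix held the same intensity in 626304 of 626304 cells. Other columns are flags for background, saturation and outlying spots, per the file headers. Columns of no sample numbered 0.

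Control spots (536 of 13048) and outlying spots (0 to 97 per array) were dropped, and no gene spot was saturated. The log2 intensity minus the array's 75th percentile was averaged over 2 spots. Genes carry the names of array design 016322 (sacCer1), of which 5756 matched R64, used for symbols and gene order only.

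limma 3.58.1 in R 4.3.3 was fitted to 6 arrays of 3 strains with a strain term, which the labels give, over 6252 genes that stood above background on 2 or more of the 6 arrays. Treated and untreated arrays of a strain deviated together, with r of 0.844 to 0.897. The fit had 2 residual degrees of freedom and 2.62 from the prior. Variance over segregants was tested over 6230 genes above background on at least 22 of 43 arrays, against the residual variance of that fit. Levels were called clustered where 2 normal distributions gained over 10 in BIC. Python 3.11.15 with scipy 1.17.1 and scikit-learn 1.9.0 was used otherwise. The fits were tested on simulated data.

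Named were all members, up to 3 called genes with the largest rise and 3 with the largest fall from each other meiosis list, RME1, UME6, IME4 and KAR4, the 3 genes most like each member past the variance threshold, and the genes on each side. Marker, haploid-specific and pheromone lists are given as counts, apart from FUS1, named after its values were seen. Members and lists were chosen with earlier results of these data known. Promoter motifs were not analysed here. Alternatives were quantile or median scaling, normexp background correction (offset 50, on median signals in place of the planned mean signals), outlying spots kept, other filters, strains or slides left out or modelled, and SEG14 left out.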

Additional observations from a re-analysis of the deposited data

Results flagged for a closer look

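In 2 of the genes the parental lines moved in opposite directions with alpha factor, on 1 array per strain and condition. IME2 changed by -0.137 in HS959 and by 0.7038 in S96, and SEG8 changed by 0.62. HOP1 changed by -0.5058 in HS959 and by 0.1004 in S96, and SEG8 changed by -0.32. Whether the parents differ in these responses was not tested.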

How the results depend on the processing

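Across the alternatives, 256 values of single members kept their direction and their side of the threshold, 19 lost a call, 1 gained one and 1 changed sign, SPO13 between the parents (-0.1972 with normexp, not called in either case). The replicate block here is strain. Without it, calls with alpha factor over all genes numbered 657, against 2225 with it, and 1 member stayed lower, against 3, with NDT80, REC8 and SPS1 losing their calls. Leaving out 1 strain gave 586 to 1617 calls, the fewest without SEG8 and 838 without HS959. Between the parents, leaving SEG8 out gave 729 calls, against 1290, and quantile scaling left 2 members lower, against 4. Genes variable among segregants numbered 1926, with 1119 within slides and 401 to 1709 with 1 strain left out of the noise estimate (728 without HS959, 401 without SEG8). Segregants against parents gave 2 calls, 1 with normexp, 0 with slide as a block, and 0 to 7 without 1 parent. Called pairs numbered 15, against 8 with slide means removed, of which 7 were among the 15 and the other was NDT80 with SPO13, and 3 with SEG14 also left out. The cause of these shifts was not tested, beyond the smaller number of arrays where strains were left out. Each parent was measured once per condition, and REC8, SPO13 and SPR3 were not well above background in 1 to 3 segregants, which limits their lowest levels.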
